A study of Mus musculus with 15 samples.

Results

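Type I interferon-stimulated genes were followed by RNA sequencing in lineage-negative (Lin-) bone marrow cells of mice that had received hematopoietic stem and progenitor cells in a second round of transplantation. The gene set held 34 named members, whose symbols were matched to Ensembl identifiers through the GENCODE mouse vM21 annotation. All 34 were found among the 45706 genes of the count table, and all 34 were among the 18983 genes that passed the filter on low counts. The donors were C57BL/6J mice carrying the CD45.2 allele in 4 genotypes: wild type (WT), Puma-/-, mTerc-/-Puma+/+ and mTerc-/-Puma-/-, the telomerase-deficient ones from the third generation of inbreeding (G3). mTerc encodes the RNA template of telomerase, and Puma (Bbc3) encodes a pro-apoptotic BH3-only protein that is a p53 target. LSK cells (Lin-, Sca-1+, c-Kit+) were passed through lethally irradiated CD45.1 wild-type recipients. The Lin- cells were then purified magnetically from femurs of the secondary recipients, so that cells of the host could have remained among them. Both mutations were germline knockouts, and the labels do not say that each library came from a separate animal. The libraries numbered 3 for WT and 4 for each of the other genotypes.

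The 15 libraries held between 102790519 and 158367059 counted reads. Terc had 4 to 17 reads in each WT and Puma-/- library and at most 1 in each telomerase-deficient library. Bbc3 lay between 5.02 and 6.80 CPM (counts scaled to a common library size) in the Puma-/- libraries, at 9.67 to 23.5 CPM in WT, and at 13.5 to 17.0 CPM in those with the label G3 mTerc-/-Puma-/-. This last group therefore did not show the lower Bbc3 level of Puma-/-, and its libraries are called the labelled double knockouts below, since their genotype rests on the label alone. Replicate 2 of this label is not drawn in the heatmaps of the study and stood far from the other libraries for many genes. The comparisons used the other 14 libraries, and the values of replicate 2 are given separately. Replicate values below are in numerical order, which is 1, 3 and 4 for the labelled double knockouts.

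Type I interferons bind the receptor formed by Ifnar1 and Ifnar2, whose kinases phosphorylate Stat2. Together with Irf9 it enters a transcription factor complex, ISGF3, which binds the interferon-stimulated response element (ISRE) in front of a large set of genes. The products limit viruses by degrading RNA, blocking translation and tethering virions, and in bone marrow interferon is known to drive resting stem cells into cycle. The 34 members cover the transcription factors of the pathway, its ISG15 modifier, the IFIT and OAS families and other effectors.

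The promoter windows of RefSeq on build GRCm38.p6, which run from 250 bases before to 50 bases after a transcription start, covered 25 of the 34 members with 30 windows. The ISRE was searched on both strands as 2 copies of GAAA with any 2 bases between them, and the gamma-activated site as TTCNNNGAA, which reads the same on both strands. The first was found in 13 of the 30 windows (43.3%), against 3.44% of the 32851 windows of all genes. The second was found in 6 of the 30 (20%), against 8.3% of all windows. The 12 members with an ISRE match had a median log2 difference of 0.71 between the labelled double knockouts and G3 mTerc-/-Puma+/+, with a range of 0.08 to 1.57. For the 13 members whose windows held no match the median was 0.41 and the range ran up to 1.49, so that the ranges overlapped. The following stretches of 60 bases are shown because they hold the element in members whose levels are described below. They are written 5′ to 3′ along the strand of the gene with the ISRE letters, or their reverse complement, in capitals.
Isg15, chr4:156200856-156200915, minus strand: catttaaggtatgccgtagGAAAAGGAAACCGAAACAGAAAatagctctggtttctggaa
Ifit1, chr19:34640769-34640828, plus strand: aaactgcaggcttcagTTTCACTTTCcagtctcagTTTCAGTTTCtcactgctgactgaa
Ifit3, chr19:34583365-34583424, plus strand: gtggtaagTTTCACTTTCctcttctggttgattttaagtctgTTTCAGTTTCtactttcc
Oas1a, chr5:120907526-120907585, minus strand: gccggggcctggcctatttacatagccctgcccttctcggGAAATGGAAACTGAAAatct
Rsad2, chr12:26456538-26456597, minus strand: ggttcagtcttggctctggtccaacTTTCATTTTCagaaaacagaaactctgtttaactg
Bst2, chr8:71537565-71537624, minus strand: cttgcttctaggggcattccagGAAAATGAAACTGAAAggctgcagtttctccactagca
Isg15 held 3 overlapping matches and Oas1a and Bst2 held 2 overlapping matches each, while those of Ifit1 and Ifit3 were 2 separate copies. The window of Ifit3b at chr19:34607761-34607820 was identical to that of Ifit3 in 60 of 60 bases.

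Of the 6 pairwise comparisons, the one between the 2 telomerase-deficient groups had the largest median difference of the members. By the labels it sets Puma-/- against Puma+/+ on the telomerase-deficient background, although Bbc3 was not lowered in the labelled double knockouts. Of the 34 members, 33 were higher in the labelled double knockouts than in G3 mTerc-/-Puma+/+, where 46.3% of all genes tested were higher. The median log2 difference of the members was 0.55, against a median of -0.015 over all genes. For 21 members each of the 3 labelled double knockouts lay above each of the 4 G3 mTerc-/-Puma+/+ libraries, a pattern seen in 3.15% of all genes. No member passed the threshold of 0.05 on the adjusted p of edgeR's quasi-likelihood test, which 0.0738% of all genes passed, and the lowest adjusted p was 0.0887 for Bst2. At an unadjusted p under 0.05 there were 22 members, all higher, against 4.37% of all genes in that direction. DESeq2 called 10 members (Isg15, Ifit1, Ifit3, Oas2, Oas3, Oasl1, Rsad2, Ifi44, Ifi27l2a and Bst2) among 172 genes, or 0.908%, and limma-voom called 0. The count depended on G3 mTerc-/-Puma+/+ replicate 1, the library of its group with the highest level of most members. Without it edgeR called 4 members (Isg15, Irf7, Ifi27l2a and Bst2), against 0.201% of all genes.

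**Figure D1:**
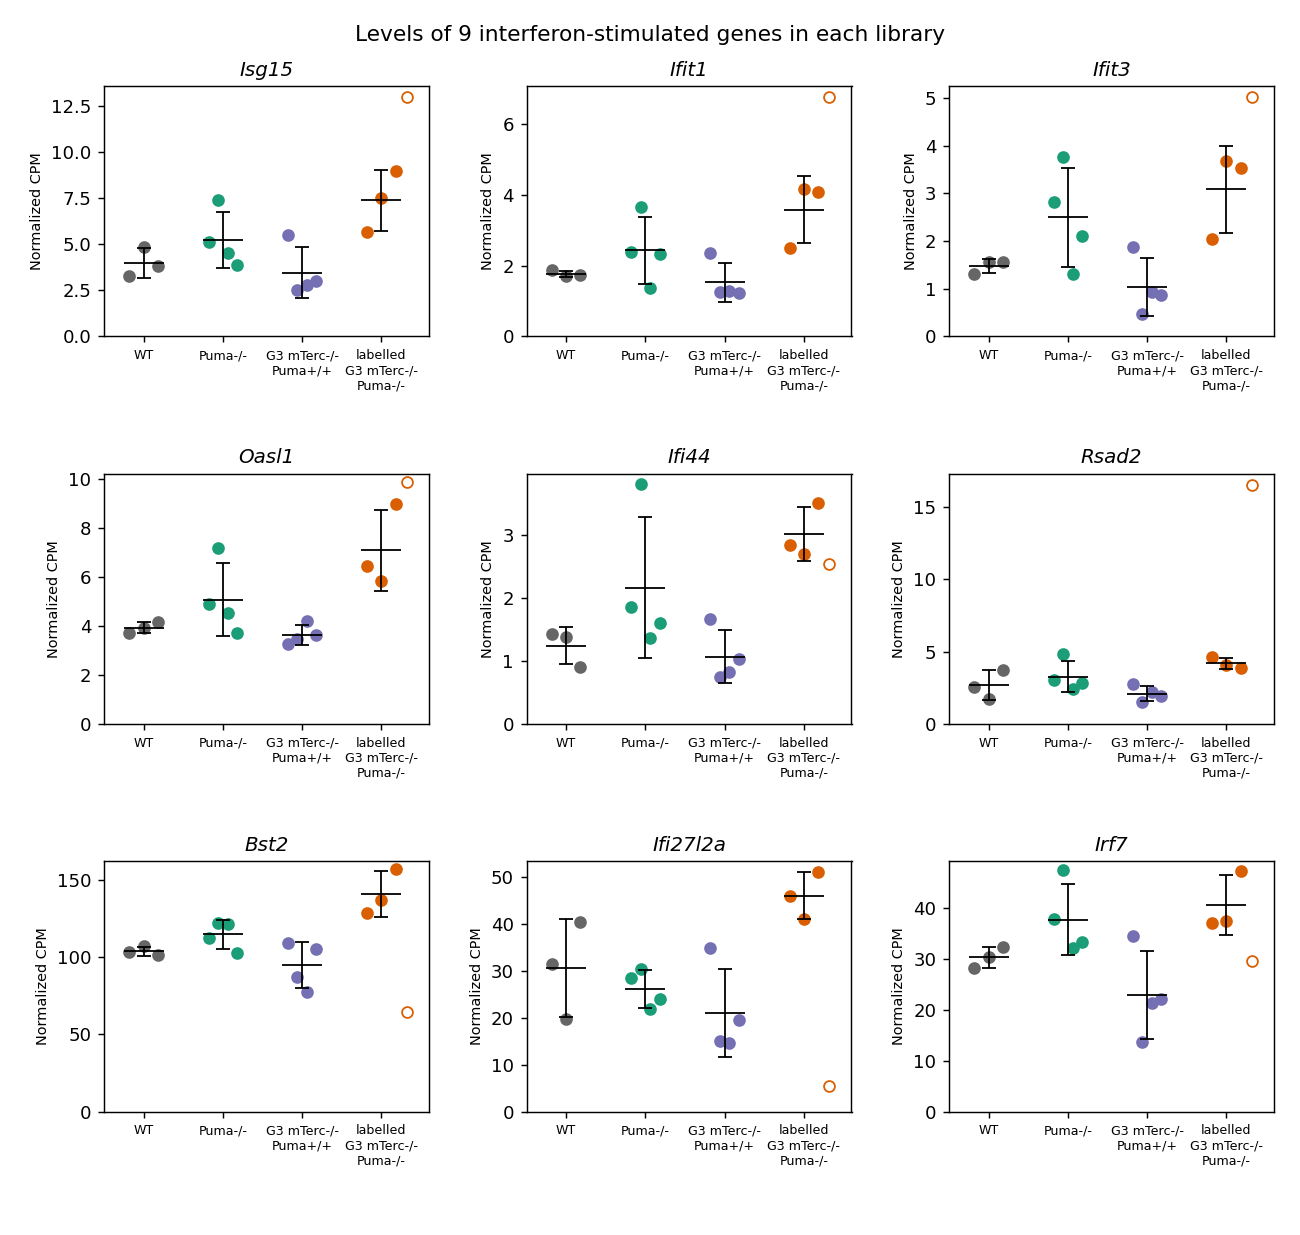
Normalized CPM (linear vertical axes starting at 0) of 9 members in each library by genotype, with filled points for the 14 libraries compared, an open circle for replicate 2 of the labelled double knockouts, bars at the group mean and error bars of 1 SD. The 3 filled points of the labelled double knockouts lie above the 4 G3 mTerc-/-Puma+/+ points in each of the 9 panels.

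Among the transcription factors, Irf7, the regulator that amplifies interferon production, differed most between groups. Irf7 (chr7:141262706-141266481, minus strand) had 28.2, 30.3 and 32.2 CPM in WT, 37.7, 47.4, 32.0 and 33.3 CPM in Puma-/-, 34.4, 13.7, 21.2 and 22.1 CPM in G3 mTerc-/-Puma+/+, and 37.0, 37.3 and 47.3 CPM in the labelled double knockouts. The last group lay wholly above G3 mTerc-/-Puma+/+ and overlapped Puma-/-. The log2 difference between the 2 telomerase-deficient groups was 0.83 ± 0.23 (SE), with an edgeR adjusted p of 0.315 and an exact permutation p of 0.0571 on the group means. Stat2 and Irf9, the DNA-binding partners in ISGF3, overlapped between these groups. Their log2 differences were 0.10 ± 0.13 for Stat2 and 0.21 ± 0.14 for Irf9.

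Isg15, a ubiquitin-like protein that is attached to other proteins, lies at chr4:156199424-156200818 on the minus strand. It had 3.27, 4.85 and 3.81 CPM in WT, 5.12, 7.37, 4.53 and 3.87 CPM in Puma-/-, 5.49, 2.53, 2.79 and 2.99 CPM in G3 mTerc-/-Puma+/+, and 5.64, 7.53 and 8.94 CPM in the labelled double knockouts. The last 3 values stood above all 7 values of WT and G3 mTerc-/-Puma+/+, although the lowest of them lay close to G3 mTerc-/-Puma+/+ replicate 1. The log2 difference to G3 mTerc-/-Puma+/+ was 1.09 ± 0.29 (edgeR adjusted p = 0.270). Usp18, the protease that removes ISG15 and dampens receptor signalling, had a mean of 6.95 ± 2.10 CPM (SD, n = 4) in G3 mTerc-/-Puma+/+ and 11.7 ± 3.04 CPM (SD, n = 3) in the labelled double knockouts. Its log2 difference was 0.75 ± 0.25 (edgeR adjusted p = 0.466), and the groups did not overlap. Herc6, the main mouse ligase for ISG15, differed by 0.33 ± 0.11 (edgeR adjusted p = 0.527) with overlapping groups. Its exons share 1269 bases with Gm45193, so that its counts are uncertain.

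The IFIT proteins bind foreign RNA that lacks the host's cap modification. Ifit1, Ifit2, Ifit3 and Ifit3b stand side by side on the plus strand of chromosome 19, between positions 34550694 and 34650009. All 4 were higher in each labelled double knockout than in each G3 mTerc-/-Puma+/+ library, with a median log2 difference of 1.37, the largest of the role groups. Ifit1 had 1.87, 1.70 and 1.73 CPM in WT, 2.38, 3.67, 1.36 and 2.34 CPM in Puma-/-, 2.36, 1.24, 1.29 and 1.24 CPM in G3 mTerc-/-Puma+/+, and 2.49, 4.16 and 4.08 CPM in the labelled double knockouts. Ifit3 had 1.31, 1.57 and 1.57 CPM in WT, 2.81, 3.76, 1.31 and 2.10 CPM in Puma-/-, 1.88, 0.461, 0.925 and 0.874 CPM in G3 mTerc-/-Puma+/+, and 2.04, 3.68 and 3.54 CPM in the labelled double knockouts. For Ifit1 only Puma-/- replicate 2 reached the range of the labelled double knockouts, whereas for Ifit3 Puma-/- replicates 1, 2 and 4 did. In both genes replicate 1 of G3 mTerc-/-Puma+/+ stood well above the other 3 of its group. The log2 differences between the 2 telomerase-deficient groups were 1.22 ± 0.31 for Ifit1 (edgeR adjusted p = 0.256), 1.57 ± 0.41 for Ifit3 (0.273) and 1.51 ± 0.39 for Ifit3b (0.257). Ifit3b was the lowest member per length, with 0.0882 to 0.227 CPM in G3 mTerc-/-Puma+/+ and 0.251 to 0.663 CPM in the labelled double knockouts. Ifit3 shares 51.2% of its 50-base exon stretches with other genes and Ifit3b 45.0%, so that reads of the pair cannot always be told apart. Ifit2, by contrast, spanned only 11.7 to 17.1 CPM over the 14 libraries, and its log2 difference was 0.21 ± 0.11.

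The OAS enzymes make oligoadenylates that switch on RNase L, and their relatives Oasl1 and Oasl2 bind RNA without this activity or with little of it. All 5 members, on chromosome 5, stood higher in every labelled double knockout than in any G3 mTerc-/-Puma+/+ library, and all 5 had an unadjusted p under 0.05. Oasl1 had 3.71, 3.94 and 4.17 CPM in WT, 4.89, 7.17, 4.55 and 3.70 CPM in Puma-/-, 3.25, 3.48, 4.22 and 3.63 CPM in G3 mTerc-/-Puma+/+, and 6.47, 5.82 and 8.98 CPM in the labelled double knockouts. WT and G3 mTerc-/-Puma+/+ overlapped within a narrow range, and only Puma-/- replicate 2 reached the range of the fourth group. Oasl1 differed by 0.96 ± 0.21 between the telomerase-deficient groups, with an edgeR adjusted p of 0.123 and an exact permutation p of 0.0286, the smallest that 3 against 4 libraries allow. Oas2 had 7.36, 4.98 and 6.20 CPM in WT, 8.22, 12.2, 5.40 and 7.79 CPM in Puma-/-, 5.19, 6.57, 4.89 and 5.32 CPM in G3 mTerc-/-Puma+/+, and 10.5, 9.56 and 11.7 CPM in the labelled double knockouts. Puma-/- replicate 2 was its highest library, and the 4 G3 mTerc-/-Puma+/+ libraries were all low. Oas2 differed by 0.95 ± 0.22 (edgeR adjusted p = 0.179). Oas1a had 14.5, 16.4 and 14.5 CPM in WT, 17.5, 25.8, 17.2 and 16.1 CPM in Puma-/-, 19.95, 20.4, 15.9 and 14.3 CPM in G3 mTerc-/-Puma+/+, and 22.2, 27.3 and 30.9 CPM in the labelled double knockouts. Of its 50-base exon stretches 57.6% are shared with other genes, mostly Oas1g, so that its counts are uncertain. The log2 differences were 0.60 ± 0.17 for Oas1a, 0.82 ± 0.22 for Oas3 and 0.81 ± 0.25 for Oasl2, with edgeR adjusted p values of 0.363, 0.286 and 0.438. Oas3 lay between 6.78 and 12.3 CPM in G3 mTerc-/-Puma+/+ and between 14.8 and 16.4 CPM in the labelled double knockouts, and Oasl2 between 7.18 and 13.6 CPM against values of up to 16.1 CPM without overlap.

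The 11 other effectors and sensors were uneven. Between the telomerase-deficient groups 10 of the 11 were higher, 5 of them with an unadjusted p under 0.05 and 5 without overlap, with a median log2 difference of 0.34. Bst2, tetherin, which holds budding virions at the membrane, had the smallest p of all members. It lies at chr8:71534255-71537456 on the minus strand and had 103, 107 and 101 CPM in WT, 113, 122, 121 and 102 CPM in Puma-/-, 109, 87.2, 77.4 and 105 CPM in G3 mTerc-/-Puma+/+, and 128, 137 and 157 CPM in the labelled double knockouts. The last 3 libraries were the highest of the 14. Bst2 differed by 0.57 ± 0.11 from G3 mTerc-/-Puma+/+ (edgeR adjusted p = 0.0887). Rsad2, viperin, which makes a chain-terminating nucleotide, had 2.56, 1.75 and 3.77 CPM in WT, 3.02, 4.85, 2.45 and 2.81 CPM in Puma-/-, 2.78, 1.52, 2.18 and 1.93 CPM in G3 mTerc-/-Puma+/+, and 4.63, 4.06 and 3.88 CPM in the labelled double knockouts. All 3 of the last values exceeded those of WT and G3 mTerc-/-Puma+/+, and Puma-/- replicate 2 was above them. Rsad2 differed by 0.99 ± 0.28 (edgeR adjusted p = 0.332). Its neighbour Cmpk2, a mitochondrial nucleotide kinase that faces it on chromosome 12 (26442746 to 26479837 for the pair), differed by 0.09 ± 0.15 with overlapping groups.

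Isg20, an exonuclease, differed by 0.41 ± 0.16, Dhx58, the LGP2 helicase of the RIG-I family, by 0.37 ± 0.11, and Slfn5, a Schlafen protein, by 0.53 ± 0.24, all 3 without overlap between the telomerase-deficient groups. Their edgeR adjusted p values were 0.629, 0.434 and 0.793, and Slfn5 shares 559 exon bases with the antisense gene Slfn5os. The dynamin-like GTPases Mx1 and Mx2, the kinase Eif2ak2 (PKR), Trim30a and Samd9l overlapped between these groups, with log2 differences from -0.0035 for Samd9l to 0.34 for Mx2. The sign for Samd9l changed with the scaling, since without TMM factors it was 0.0132. The ADP-ribosyltransferases Parp9 and Parp14 differed by 0.15 ± 0.09 and 0.32 ± 0.21, also with overlap.

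Of the 6 further members, all 6 were higher in the labelled double knockouts than in G3 mTerc-/-Puma+/+, 5 with an unadjusted p under 0.05 and 4 without overlap. Ifi44 had 1.44, 1.39 and 0.908 CPM in WT, 1.86, 3.82, 1.37 and 1.61 CPM in Puma-/-, 1.67, 0.745, 0.833 and 1.03 CPM in G3 mTerc-/-Puma+/+, and 2.85, 2.70 and 3.51 CPM in the labelled double knockouts. Only Puma-/- replicate 2 was as high as the last group, and the log2 difference between the telomerase-deficient groups was 1.49 ± 0.35 (edgeR adjusted p = 0.179). Ifi27l2a, a small protein of mitochondria and the nuclear envelope, had 31.5, 19.7 and 40.5 CPM in WT, 28.4, 30.5, 21.8 and 24.0 CPM in Puma-/-, 34.8, 15.1, 14.6 and 19.6 CPM in G3 mTerc-/-Puma+/+, and 46.0, 41.2 and 51.1 CPM in the labelled double knockouts. The 3 libraries of the last group were the highest of the 14, and the other genotypes overlapped. Its log2 difference was 1.13 ± 0.28 to G3 mTerc-/-Puma+/+ (edgeR adjusted p = 0.223) and 0.82 ± 0.28 to Puma-/- (edgeR adjusted p = 0.410). Xaf1, an antagonist of the apoptosis inhibitor XIAP, differed by 0.59 ± 0.17 between the telomerase-deficient groups, and Rtp4, a receptor chaperone, by 0.97 ± 0.28, with edgeR adjusted p values of 0.367 and 0.363. Xaf1 spanned 7.84 to 12.9 CPM against 14.1 to 14.4 CPM in these groups, and Rtp4 2.10 to 3.77 CPM against 4.43 to 6.89 CPM. Rtp4 shares 296 exon bases with Gm45338. Lgals3bp, a secreted glycoprotein, overlapped at 78.6 to 112 CPM in G3 mTerc-/-Puma+/+ and 108 to 130 CPM in the labelled double knockouts (log2 difference 0.42 ± 0.18), as did Ifi35 (0.20 ± 0.09).

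**Figure D2:**
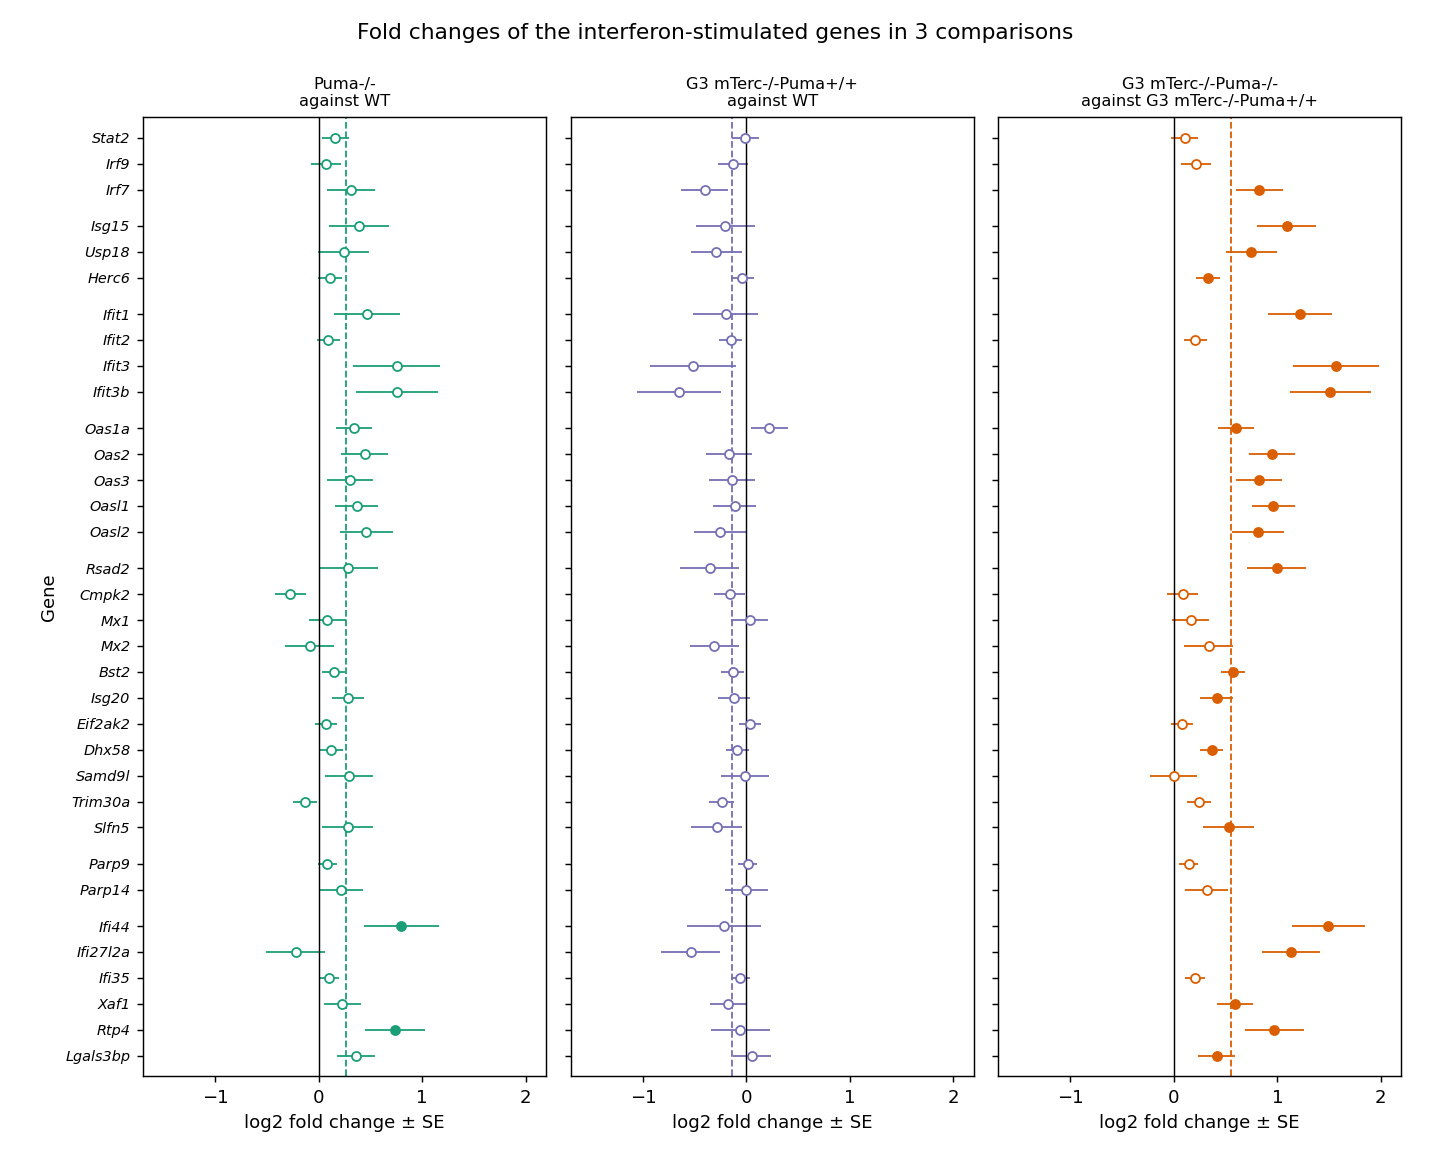
Log2 fold change (horizontal axis, points with bars of 1 SE from edgeR) of each of the 34 members in 3 comparisons, with filled points for an unadjusted p under 0.05 and a dashed line at the median of the members. The filled points number 2 for Puma-/- against WT, 0 for G3 mTerc-/-Puma+/+ against WT and 22 for the labelled double knockouts against G3 mTerc-/-Puma+/+, and none passed the adjusted threshold.

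The other comparisons share libraries with the one above and are therefore not independent of it. Puma loss in cells with intact telomerase was read from Puma-/- against WT. Here 30 of the 34 members were higher, against 50.9% of all genes, with a median log2 difference of 0.26. Rtp4 (0.73 ± 0.29) and Ifi44 (0.80 ± 0.36) had an unadjusted p under 0.05, 2 members where 5.77% of all genes had one in that direction. The groups did not overlap for 1 member, against 5.5% of all genes. Under edgeR 0 members passed the adjusted threshold, which 0.079% of all genes passed, and DESeq2 and limma-voom also called 0. The difference rested largely on Puma-/- replicate 2, without which the median was 0.11.

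Telomerase loss with Puma present, G3 mTerc-/-Puma+/+ against WT, differed little. Of the 34 members 28 were lower, against 45.5% of all genes, with a median of -0.14. No member had an unadjusted p under 0.05, which 3.86% of all genes had, 1 was lower without overlap (2.12% of all genes), and the lowest edgeR adjusted p was 0.998. Under each of edgeR, DESeq2 and limma-voom 0 members passed the adjusted threshold, where edgeR called 0.0369% of all genes. Without G3 mTerc-/-Puma+/+ replicate 1 there were 9 members with an unadjusted p under 0.05, against 5.91% of all genes, and the median was -0.28.

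The labelled double knockouts against WT had 32 of the 34 members higher, against 50% of all genes, with a median of 0.42. The groups did not overlap for 19 members, against 5.33% of all genes, and 14 had an unadjusted p under 0.05, against 3.71% of all genes in that direction. The lowest edgeR adjusted p was 0.289, for Oas1a (log2 difference 0.82 ± 0.19), followed by Oasl1 (0.85 ± 0.23, 0.441). No member passed under edgeR, where 0.0632% of all genes did, 2 passed under DESeq2 (Oas1a and Oasl1, against 0.49% of all genes) and 0 under limma-voom. With 3 libraries against 3 an exact permutation p cannot go below 0.1. The count of 14 was 8 without replicate 3 of the label (3.91% of all genes in either direction). It was 9 without its replicate 4 (5.87%) or without WT replicate 1 (4.4%).

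In G3 mTerc-/-Puma+/+ against Puma-/- libraries 33 of the 34 members were lower, against 50.1% of all genes, with a median of -0.31. There were 17 members with an unadjusted p under 0.05, all lower, against 8.96% of all genes in that direction. The groups did not overlap for 2 of them, Ifit2 and Ifit3b, against 5.84% of all genes. The log2 differences with the lowest edgeR adjusted p were -1.41 ± 0.37 for Ifit3b (0.0845), -0.72 ± 0.22 for Irf7 (0.121) and -1.27 ± 0.39 for Ifit3 (0.1298). No member passed under edgeR, where 0.801% of all genes did. DESeq2 called 6 members (Ifit3, Ifit3b, Oasl2, Irf7, Ifi44 and Rtp4) among 996 genes, or 5.82% of those with an adjusted p, and limma-voom called 0. Without G3 mTerc-/-Puma+/+ replicate 1 edgeR called 1 member (Irf7), against 0.423% of all genes. The 17 became 8 without Puma-/- replicate 2 (12.5% of all genes in either direction), and 8 without G3 mTerc-/-Puma+/+ replicate 2 (12.9%). Xist, which is transcribed from the inactive X, was at 464 to 865 CPM in Puma-/- and at 0.176 to 88.6 CPM in G3 mTerc-/-Puma+/+. With its level as a covariate 8 members had an unadjusted p under 0.05, and the share of all genes with one fell from 17.1% to 9.89%. In the contrast between the telomerase-deficient groups that covariate left 21 of 22, where 6.42% of all genes had an unadjusted p under 0.05.

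The labelled double knockouts against Puma-/- had 30 members higher, against 52% of all genes, with a median of 0.14. Ifi27l2a, Bst2, Oas1a and Oasl1 had an unadjusted p under 0.05, all higher, against 3.51% of all genes in that direction. Ifi27l2a and Bst2 did not overlap (3.98% of all genes were higher without overlap), and Samd9l was lower without overlap (5.57% of all genes), with 45.5, 49.98 and 51.1 CPM against 51.8 to 67.3 CPM. No member passed the edgeR threshold, which 0.306% of all genes passed, nor that of DESeq2 or limma-voom. In a fit of these groups alone edgeR called Ifi27l2a, against 0.488% of all genes. Without Puma-/- replicate 2 there were 10 members with an unadjusted p under 0.05, against 6.8% of all genes in either direction.

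The interaction term asks whether the difference between Puma-/- and Puma+/+ libraries, as labelled, was the same with and without telomerase. It was above 0 for 32 members, with a median of 0.36, against a median of -0.006 over all genes. Ifi27l2a (1.36 ± 0.40, edgeR adjusted p = 0.676), Bst2 (0.43 ± 0.16) and Trim30a (0.37 ± 0.17) had an unadjusted p under 0.05, 3 members against 4.93% of all genes. No member passed the adjusted threshold under edgeR (0.0527% of all genes), DESeq2 or limma-voom, so that the Puma contrast was not shown to differ between the telomerase backgrounds for any of them. The count of 3 was 12 without Puma-/- replicate 2 (4.55% of all genes) and 13 without G3 mTerc-/-Puma+/+ replicate 1 (6.48%). In the test of any difference among the 4 genotypes 19 members had an unadjusted p under 0.05, against 11.4% of all genes, and the lowest edgeR adjusted p was 0.104. Here 0 members passed under edgeR (0.448% of all genes) and limma-voom, and 13 under DESeq2, which called 836 genes or 4.41% of those with an adjusted p. Without G3 mTerc-/-Puma+/+ replicate 1 edgeR called 1 member, against 0.513% of all genes.

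**Figure D3:**
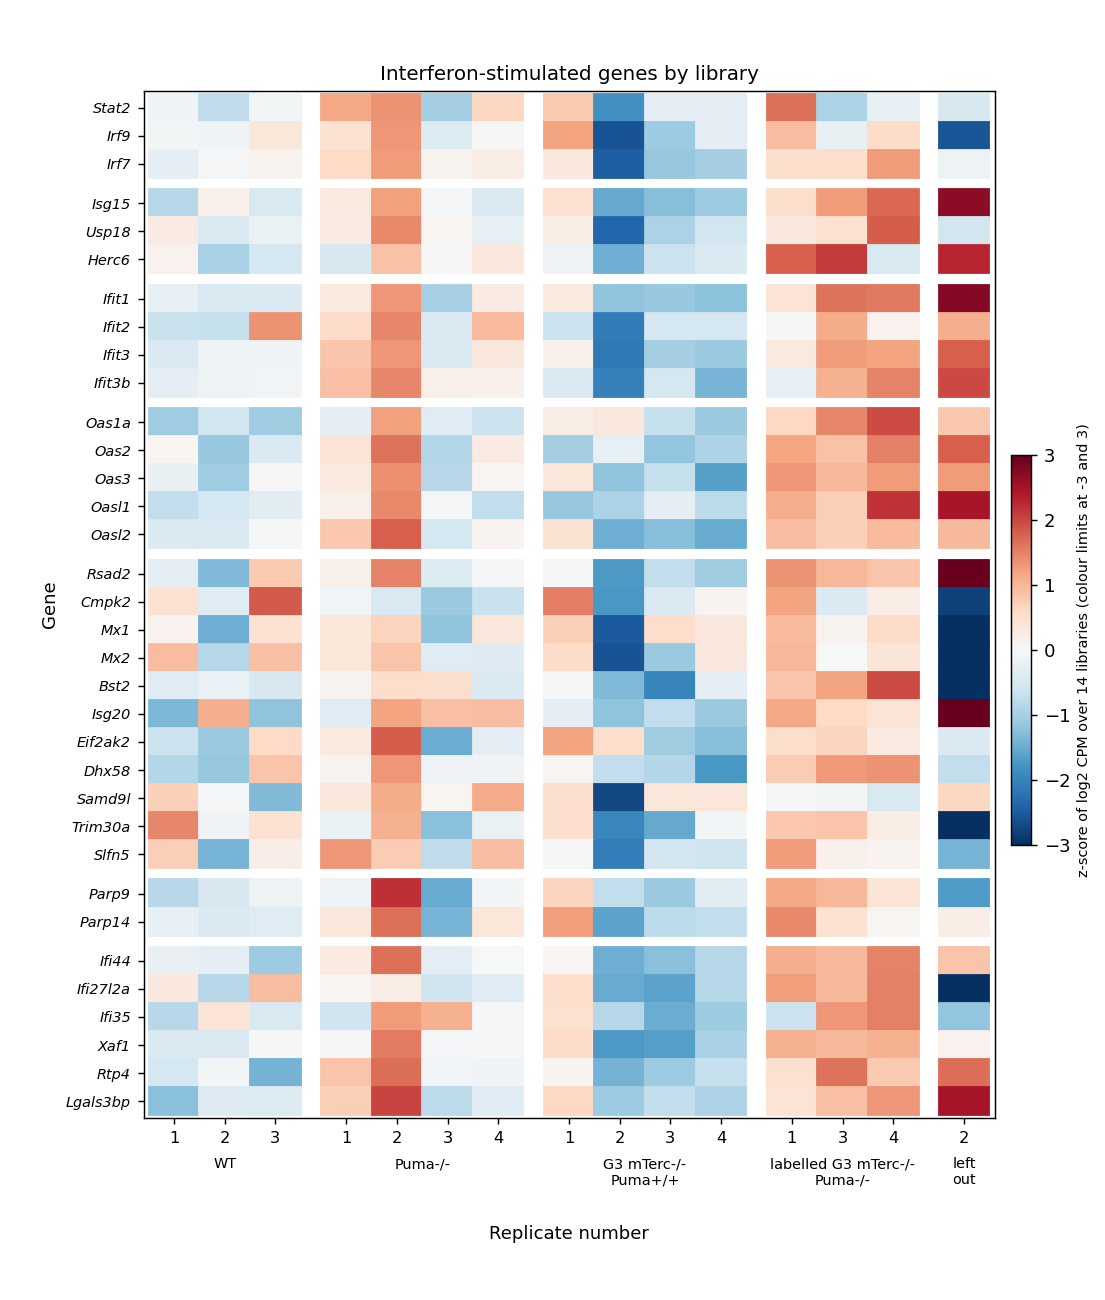
Level of each member (rows, grouped by role) in each of 15 libraries (columns, grouped by genotype label), as the distance of its log2 CPM from the mean of the 14 libraries compared in units of their SD, with colours limited at -3 and 3. Puma-/- replicate 2 and the labelled double knockouts are high for most members and G3 mTerc-/-Puma+/+ replicate 2 is low.

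The members varied together from library to library as well as between genotypes. The first principal component of their log2 CPM held 64.2% of the variance over the 14 libraries, against 25.1% for all genes tested, and all 34 loaded on it with the same sign. With the genotype means removed it held 52.6%, against 27.4% for all genes. Puma-/- replicate 2 was the highest of its group for 31 of the 34 members, which held for 26.6% of all genes, and G3 mTerc-/-Puma+/+ replicate 1 for 30, against 26.0%. G3 mTerc-/-Puma+/+ replicate 2 was the lowest of its group for 22 members, against 33.0% of all genes. The ratio of the highest to the lowest library within a group had a median over members of 1.21 for WT, 1.45 for Puma-/-, 1.75 for G3 mTerc-/-Puma+/+ and 1.24 for the labelled double knockouts. It was largest for Ifit3 in G3 mTerc-/-Puma+/+, at 4.08. In WT it was largest for Rsad2, at 2.15.

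Ordered by group mean, 29 members were highest in the labelled double knockouts, 4 in Puma-/- and 1 in WT, and 28 were lowest in G3 mTerc-/-Puma+/+, 5 in WT and 1 in Puma-/-. The mean of the log2 CPM of the 34 members was 3.72, 3.63 and 3.75 in WT, 3.95, 4.29, 3.66 and 3.82 in Puma-/-, 3.88, 3.21, 3.46 and 3.48 in G3 mTerc-/-Puma+/+, and 4.09, 4.13 and 4.21 in the labelled double knockouts. WT, Puma-/- and G3 mTerc-/-Puma+/+ overlapped on this scale, the labelled double knockouts lay above every library of WT and G3 mTerc-/-Puma+/+, and Puma-/- replicate 2 was the highest library of all. Per length, as normalized RPKM (CPM divided by the exon length in kilobases), Bst2 led the members with a mean level of 124 over the 14 libraries, followed by Ifi27l2a with 64.6 and Lgals3bp with 35.5. Ifi44 and Ifit3b were lowest, the latter at 0.167. The median member stood at 4.99 RPKM and the median gene tested at 2.37.

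The rest of the pathway was read from fixed lists, here for the labelled double knockouts against G3 mTerc-/-Puma+/+. Of 21 interferon ligand genes 1 passed the filter, Ifng, the type II interferon (log2 difference 0.99 ± 0.52, edgeR adjusted p = 0.834). Between 14 and 16 of the 21 had no read in any library of a group, and Ifnb1, interferon beta, had at most 5 reads in a library. Of 14 receptor and signalling genes 10 were higher and 0 had an unadjusted p under 0.05, with a median of 0.07. The receptor chains differed by 0.05 ± 0.10 (Ifnar1) and 0.07 ± 0.09 (Ifnar2). Of the genes highest per length in this list, Irf8 differed by 0.23 ± 0.16, Ifngr1 by -0.03 ± 0.10 and Irf5 by 0.08 ± 0.21. The 8 inhibitors of the pathway had a median of 0.03, with 0.03 ± 0.08 for the phosphatase Ptpn6, the most abundant of them per length. Of 49 further interferon-stimulated genes 45 were higher, against 46.3% of all genes, at a median of 0.23, where the 34 members stood at 0.55. At an unadjusted p under 0.05 there were 11 higher, against 4.37% of all genes in that direction, and 1 lower. The most abundant of them per length were B2m, the light chain of MHC class I (0.28 ± 0.14), Ly6e (0.16 ± 0.12) and Ifitm3, which blocks viral entry (0.37 ± 0.13). None of these lists had a gene past the adjusted edgeR threshold in this comparison. Against Puma-/-, 41 of the 49 were lower in G3 mTerc-/-Puma+/+ with a median of -0.13, where 50.1% of all genes were lower. Slfn9, a Schlafen gene, was higher by 0.62 ± 0.13 (edgeR adjusted p = 0.0472), in a comparison where 0.801% of all genes passed the threshold.

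**Figure D4:**
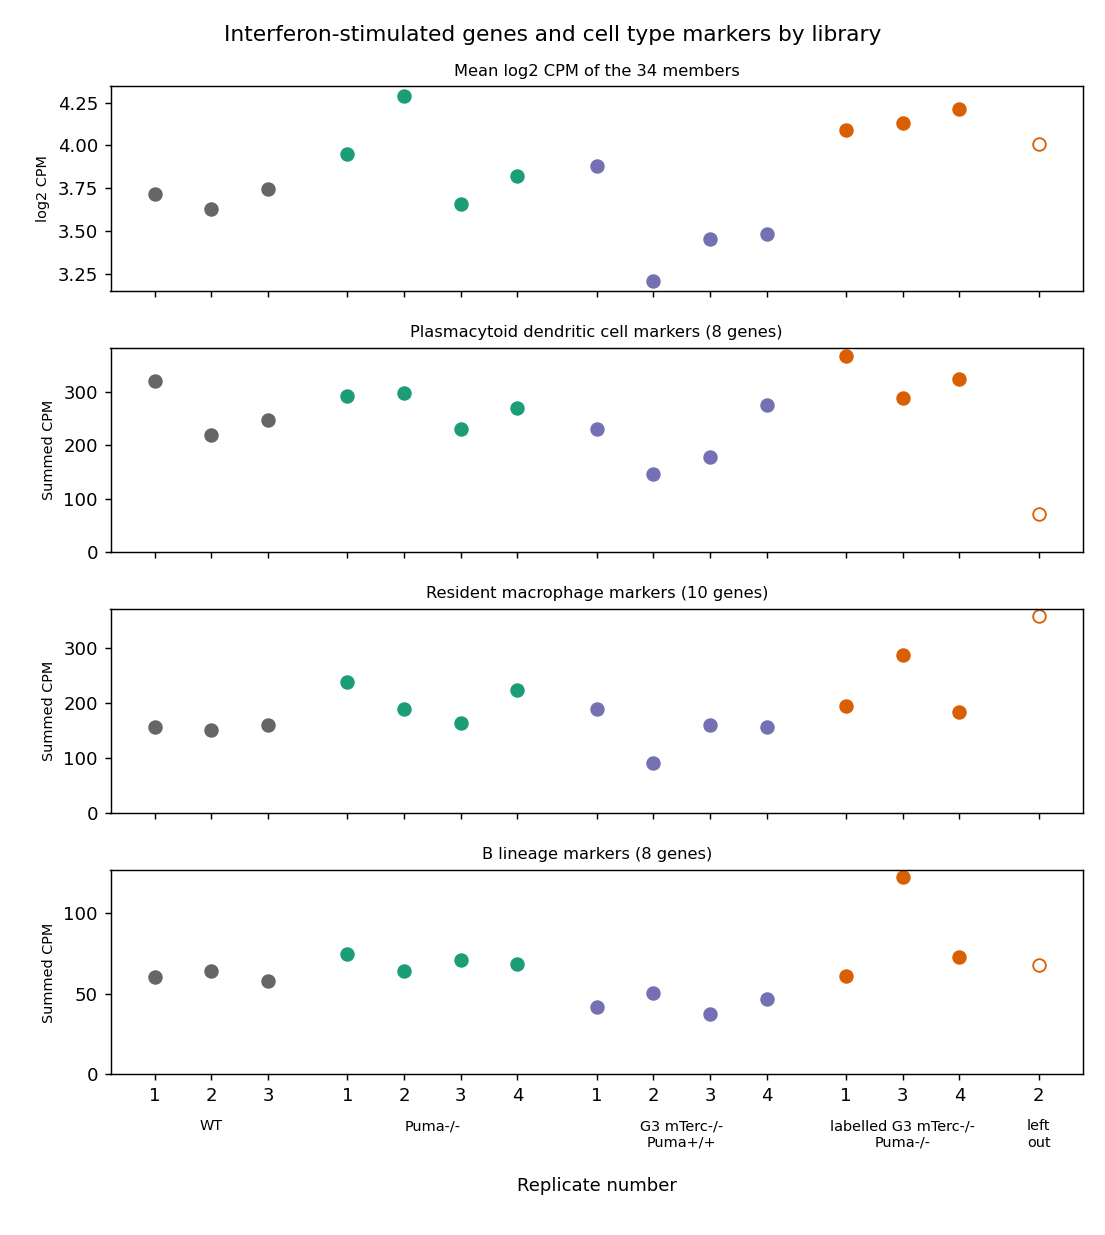
Mean log2 CPM of the 34 members and summed CPM of the markers of plasmacytoid dendritic cells (8 genes), resident macrophages (10 genes) and the B lineage (8 genes) in each library by genotype, with an open circle for replicate 2 of the labelled double knockouts. The plasmacytoid sum runs from 289 to 368 CPM in the filled points of the labelled double knockouts and from 146 to 275 CPM in G3 mTerc-/-Puma+/+, while the open circle lies at 71.0 CPM.

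Markers of several cell types were also higher in the labelled double knockouts than in G3 mTerc-/-Puma+/+. Plasmacytoid dendritic cells are known as strong producers of type I interferon and express several members at a high level, among them Bst2 and Irf7. Their 8 markers were all higher in the labelled double knockouts than in G3 mTerc-/-Puma+/+, with a median log2 difference of 1.53. Of these, 7 had an unadjusted p under 0.05, against 4.37% of all genes in that direction. None passed the adjusted threshold (lowest edgeR adjusted p 0.0761), which 0.0738% of all genes passed. Their summed level was 219 to 321 CPM for WT, 230 to 298 for Puma-/-, 146 to 275 for G3 mTerc-/-Puma+/+ and 289 to 368 for the labelled double knockouts, and no marker was at 0 in any of the 14 libraries. Siglech, a defining marker, had 34.5, 16.4 and 24.5 CPM in WT, 35.4, 25.1, 22.9 and 28.9 CPM in Puma-/-, 21.6, 8.04, 9.15 and 23.2 CPM in G3 mTerc-/-Puma+/+, and 50.01, 41.1 and 47.4 CPM in the labelled double knockouts. Siglech was highest in the labelled double knockouts, while Puma-/- replicate 2, where 16 members had their highest library, was at 25.1 CPM, within the range of its group. The sum of the 8 markers in that library was 298 CPM, the highest of its group. In G3 mTerc-/-Puma+/+ against Puma-/- all 8 were lower, with a median of -0.88. An unadjusted p under 0.05 was found for 7, against 8.96% of all genes in that direction. In these bulk libraries fewer cells of a type and less RNA per cell cannot be told apart.

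The B-lineage markers, some of them also a sign of cells that lineage depletion should remove, were higher for 8 of 8 in the labelled double knockouts than in G3 mTerc-/-Puma+/+. Among them 2 passed the threshold, which 0.0738% of all genes passed, with a lowest edgeR adjusted p of 0.0184. Igll1, a part of the pre-B cell receptor, was 1 of the 2 (log2 difference 2.95 ± 0.45, edgeR adjusted p = 0.0393). Against WT, 6 of the 8 were higher in the labelled double knockouts, among them Igll1 (2.41 ± 0.49) and Vpreb1 (2.05 ± 0.50). The 2 lower ones were Ms4a1 (-0.21 ± 0.29) and Cd79b (-0.07 ± 0.12). The summed level of the 8 B-lineage markers was 58.1 to 64.1 CPM for WT, 64.4 to 74.5 for Puma-/-, 37.7 to 50.5 for G3 mTerc-/-Puma+/+ and 60.9 to 122 for the labelled double knockouts. Within Puma-/- this sum was lowest in replicate 2 (64.4 CPM), where most members were highest. Within G3 mTerc-/-Puma+/+ it was highest in replicate 2 (50.5 CPM), where most members were lowest. Resident macrophage markers were higher for 10 of 10, with sums of 151 to 160, 164 to 238, 92.0 to 190 and 184 to 287 CPM in the same order. Of these, 3 had an unadjusted p under 0.05, where 4.37% of all genes had one in that direction. Of the late neutrophil markers 8 of 8 were higher and of the monocyte markers 6 of 7, with 2 and 0 at an unadjusted p under 0.05. The late neutrophil sum was 326 CPM in Puma-/- replicate 2, the lowest of its group. It was 1869 CPM in G3 mTerc-/-Puma+/+ replicate 2, the highest of its group. The plasmacytoid and macrophage sums of the latter library (146 and 92.0 CPM) were the lowest of its group. Erythroid markers were higher for 7 of 7, T and NK markers for 7 of 9 and stem and progenitor markers for 4 of 10, while those of megakaryocytes were lower for 5 of 5. Against Puma-/-, the platelet genes Pf4 (-1.63 ± 0.27), Gp1ba (-1.43 ± 0.21) and Gp9 (-1.29 ± 0.23) and the B-cell gene Ms4a1 (-2.61 ± 0.27) were lower in G3 mTerc-/-Puma+/+ with an edgeR adjusted p of 0.0310 or less. In that comparison 0.801% of all genes passed the threshold of 0.05. The part of these cell types in the difference of the members was not tested.

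Replicate 2 of the labelled double knockouts, outside these comparisons, split the members. It lay above all 14 other libraries for 11 members (Isg15, Ifit1, Ifit3, Ifit3b, Oas2, Oasl1, Rsad2, Rtp4, Isg20, Herc6 and Lgals3bp), below all of them for 7 (Mx1, Mx2, Ifi27l2a, Cmpk2, Bst2, Trim30a and Parp9) and within their range for 16. Over all genes tested 22.7% lay above and 23.8% below. Isg15 was at 13.005 CPM, Ifit1 at 6.77, Rsad2 at 16.5 and Isg20 at 36.4, where the other libraries of the label reached 8.94, 4.16, 4.63 and 12.7 CPM. Bst2 was at 64.6 CPM, Ifi27l2a at 5.43 and Mx1 at 6.96. Siglech was at 0.129 CPM and Klk1, another plasmacytoid marker, had no read in this library, while the 8 plasmacytoid markers summed to 71.0 CPM. A count of 0 in it allows up to 0.0258 CPM, which covers counting error only. With this library in the fit, 32 members were higher than in G3 mTerc-/-Puma+/+ with a median of 0.54, 20 had an unadjusted p under 0.05 (10.2% of all genes), 14 did not overlap (2.03%) and 0 passed the adjusted edgeR threshold (0.0313%). Mx1 and Cmpk2 then lay on the other side of 0, at -0.15 and -0.06.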

How the data were processed

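RNA of Lin- bone marrow cells was sequenced in 15 libraries of 4 genotypes. The authors deposited 1 table of raw read counts per gene, and per the labels reads were trimmed and aligned to mm10 (GRCm38). The submitters' processing notes name Trimmomatic 0.38 and STAR 2.5.2b. The counting annotation and strand setting are not given in the sources used here, so that overlapping and antisense genes were treated as uncertain. Every column was assigned from its name and 0 were unused. Groups came from the GEO labels. Symbols and exon lengths were taken from GENCODE vM21 and promoter windows from RefSeq.

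The counts were analysed with edgeR 4.0.16 in R 4.3.3 (filterByExpr, TMM, quasi-likelihood test, 1 fit of the 4 genotypes over 14 libraries, 6 pairwise comparisons, the interaction and a test of any difference). P-values were adjusted by Benjamini-Hochberg over all 18983 genes, with a threshold of 0.05. CPM (read counts scaled to a common library size) used TMM factors, and log2 CPM a prior count of 2. Exact permutation tests of log2 CPM were two-sided. Libraries held at least 102790519 reads, so that precision was limited mainly by their number. P-values measure only the spread between these libraries, which are not stated to be separate animals. Alternatives were DESeq2 1.42.0, limma-voom (limma 3.58.1), no TMM, another filter, no filter, all 15 libraries, only the groups compared, Xist as a covariate, a replicate block and leaving out each library. The scripts were tested on simulated data.

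The members and lists were chosen with earlier results of these data known. Members described in full were those with an unadjusted p under 0.05 in at least 2 pairwise comparisons or among the 3 highest per exon length, as none passed the adjusted threshold, and the others are given by ranges and counts. From the lists, the genes named were taken from those past the adjusted threshold, not all of which are named, and the most abundant ones. Pathway and marker genes outside that rule were named after their values were seen.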

Additional observations from a re-analysis of the deposited data

Results flagged for a closer look

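In 14 of 102 groups of 4 libraries, 34 members in the 3 genotypes with 4 libraries each and with replicate 2 labelled G3 mTerc-/-Puma-/- included, 1 library stood farther from the other 3 than Dixon's criterion allows at 95%. Chance flags about 1 in 20 such groups, and the members vary together, so that these are not separate events. In G3 mTerc-/-Puma+/+, replicate 1 stood high for Isg15 (5.49 CPM, the others at 2.53 to 2.99), Ifit1 (2.36, the others at 1.24 to 1.29) and Oasl2 (13.6, the others at 7.18 to 7.75). Replicate 2 of the same genotype stood low for Ifit2 (11.7, the others at 13.7 to 13.9), Mx1 (19.4, the others at 31.8 to 34.02) and Samd9l (26.3, the others at 55.8 to 57.8). In Puma-/-, replicate 2 stood high for Oas1a (25.8 CPM, the others at 16.1 to 17.5) and Xaf1 (16.1, the others at 11.3 to 11.5). Under the label G3 mTerc-/-Puma-/-, replicate 3 stood low for Oas3 (14.8, the others at 16.2 to 16.4). Replicate 2 of that label, which the main comparisons leave out, stood high for Rsad2 (16.5, the others at 3.88 to 4.63) and Isg20 (36.4, the others at 11.1 to 12.7). The same library stood low for Mx1 (6.96, the others at 30.6 to 35.4), Xaf1 (11.8, the others at 14.1 to 14.4) and Trim30a (41.3, the others at 80.5 to 87.1).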

How the results depend on the processing

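The number of members past the adjusted threshold depended on the tool and on single libraries. The medians of the 34 members kept their sign under every alternative run. They moved by less than 0.215, the pooled SD of the library means of member log2 CPM. That limit exceeded the main median in size for G3 mTerc-/-Puma+/+ against WT (-0.14) and for the label G3 mTerc-/-Puma-/- against Puma-/- (0.14). It therefore says little about the stability of these medians. With libraries left out, the median ran from 0.11 to 0.31 for Puma-/- against WT. For that label against Puma-/- it ran from 0.077 to 0.28. DESeq2 called 2 members for the libraries labelled G3 mTerc-/-Puma-/- against WT, 6 for G3 mTerc-/-Puma+/+ against Puma-/-, 10 between the telomerase-deficient groups and 13 for any difference among the genotypes. A fit of only the groups compared called 1 member for that label against Puma-/-, against 0.488% of all genes. With each library left out in turn, edgeR called 0 to 1, 0 to 4 and 0 to 1 members in G3 mTerc-/-Puma+/+ against Puma-/-, in the contrast of the telomerase-deficient groups and in the test of any difference, each maximum being without G3 mTerc-/-Puma+/+ replicate 1, and 0 elsewhere. In the contrast of the telomerase-deficient groups the members at an unadjusted p under 0.05 then numbered 19 to 26, and the median ran from 0.44 to 0.65. The count of 19 came without replicate 3 of the label (5.25% of all genes). That of 26 came without G3 mTerc-/-Puma+/+ replicate 1 (9.88%). The cause was not tested.

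The replicate numbers only name the libraries, since the deviations of the 18 same-numbered pairs correlated between -0.253 and 0.175 and 3 of 14 libraries were closest to their own number. With the replicate block the telomerase-deficient groups gave a median of 0.52 with 22 members at an unadjusted p under 0.05 (5.82% of all genes) and 0 called, and 0 were called in all other comparisons.

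Single values were followed for all 34 members in the contrast of the telomerase-deficient groups, and for the members described in full in G3 mTerc-/-Puma+/+ against Puma-/- and in the labelled G3 mTerc-/-Puma-/- libraries against WT. Of these, 1754 values kept their direction and side of the threshold, 23 passed it only under an alternative and 14 changed sign. Oas1a in G3 mTerc-/-Puma+/+ against Puma-/- ran from -0.1924 to 0.0487 with libraries left out. The other 13 were in the contrast of the telomerase-deficient groups, in 4 members whose log2 difference was at most 0.16 in size. With all 15 libraries Mx1 was at -0.154, Cmpk2 at -0.0556 and Samd9l at 0.0739. Samd9l was at 0.0132 without TMM factors, 0.0562 with limma-voom and 0.0114 with a mean CPM of at least 1, and ran from -0.217 to 0.0889 with libraries left out. Likewise Cmpk2 ran from -0.0234 to 0.228 and Stat2 from -0.0428 to 0.199. Over all 34 members, the number that changed sign under some alternative was 6 for Puma-/- against WT, 11 for G3 mTerc-/-Puma+/+ against WT, 8 for the labelled libraries against WT, 5 for G3 mTerc-/-Puma+/+ against Puma-/-, 16 for the labelled libraries against Puma-/- and 7 for the interaction, all with a log2 difference of at most 0.22 in size. The filter on a mean CPM of at least 1 removed Ifit3b, which then has no value. Depth limits mainly Ifit3b, whose counts were the lowest of the members.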
